A study of Mus musculus with 157 samples.

Results

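Early thymic lymphomas labelled as double positive (DP, bearing both CD4 and CD8) were set against non-tumoral double negative stage 4 (DN4) thymocytes, the dividing stage that comes just before DP in thymus development. Members were the libraries that the labels place in these 2 groups in the earlier of the series' runs, 5 early DP tumours and 6 DN4 libraries, 11 of 157 in all. Both groups carried the genotype RERT2-Cdc20(D/AAA), so neither is a wild-type reference. Cdc20 activates the anaphase-promoting complex, the AAA form is one the spindle checkpoint protein Mad2 cannot hold, and RERT2 names a mouse line with an inducible Cre recombinase. The labels give no age, treatment or animal number, so p-values measure only the spread between these libraries, which may be technical. Per the labels' protocol, sorted thymocytes went straight into lysis buffer, lymphoma RNA came from far more cells, and tumours were not sorted unless stated. The labels do not spell out whether the tumours labelled DP were sorted. In bulk RNA, fewer cells of a type and less RNA per cell cannot be told apart.

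As background, thymocytes that pass the pre-T cell receptor checkpoint divide rapidly as DN4 cells. They then switch on Cd4 and Cd8, slow their division and reopen the recombinase genes Rag1 and Rag2 to assemble the alpha chain of the T cell receptor. Beta chain variable genes (Trbv) are joined earlier, so a clone of cells carries a shared Trbv gene. Sorted DP cells of the same genotype (11 libraries) and sorted +/D DN4 (8) and DP (7) libraries are given as side values.

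Total counts ran from 2701382 to 5178274 in the tumours and from 3393245 to 9767689 in the DN4 libraries. All 5 tumours and DN4 replicates 5 and 6 had later title numbers, and the other 4 DN4 libraries had earlier ones, which the labels do not explain. Tumours 1 and 3 stood apart from the other tumours. Tumour 1 lay nearest to non-tumoral DP cells in stage, chromosome and receptor values. Tumour 3 had the lowest Rag1 and Rag2 levels and the most uniform Trbv use. Of 10 DP markers, 7 were higher in the tumours and none lower. Among these 7 were Cd4, Cd8a and Cd8b1, whose products define the DP label itself. Of 10 markers of DN3 and DN4 cells, none passed edgeR's test, 2 had an unadjusted p under 0.05, and DESeq2 called 1 and limma voom 0. Il2ra, a marker of the DN2 and DN3 stages, was at 2.94 to 18.7 CPM in DN4 (CPM is a library's counts scaled to a common total).

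Of 11292 genes tested, 487 (4.31%) passed an adjusted p of 0.05 in edgeR's quasi-likelihood test. Of these, 274 (2.43%) were higher in the tumours and 213 (1.89%) were lower. The list counts below are to be read beside these shares, and a count of 1 gene says little about its list. The CPM ranges of the groups did not overlap for 4.69% of the tested genes. The median log2 fold change over all genes was 0.02. DESeq2 called 1079 genes and limma voom with quality weights 1207. Leaving out tumour 1 gave 539, leaving out tumour 3 gave 816 and leaving out both gave 675. Leaving out tumour 2 or 4 gave 234 or 244, and leaving out DN4 replicate 1, 2, 3 or 4 gave 245, 230, 290 or 292. With the later-numbered libraries alone, which are the same 5 tumours against 2 of the 6 DN4 libraries, 22 genes passed, of which 20 were among the 487.

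Genes of the DP stage rose where they passed. Of 20 members, 12 were higher in the tumours and none lower by the test, with a median log2 fold change of 1.73. Fold changes were positive for 19 members and negative for 1. The list was chosen with earlier results of these data known, so its count is a description. The count also includes Cd4, Cd8a and Cd8b1, whose products define the labels of the groups. Leaving out any 1 library gave 8 to 15 of 20, with 8 without tumour 2 or DN4 replicates 2, 4 or 5 and 15 without tumour 3. With the later-numbered libraries alone none passed and the median was 2.02.

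Cd4, the coreceptor for MHC class II, was at 1256, 581, 124, 329 and 351 CPM in tumours 1 to 5 and at 26.2, 10.6, 6.45, 18.6, 23.7 and 36.2 CPM in the DN4 libraries. The groups did not overlap, and tumour 1 was the highest and tumour 3 the lowest of the tumours. The log2 fold change was 4.71 ± 0.58 (SE), with an edgeR adjusted p of 0.000613. Cd8a, a chain of the coreceptor for MHC class I, was at 3131, 1123, 708, 1046 and 816 CPM in the tumours and at 46.3, 42.05, 70.0, 45.3, 127 and 80.5 CPM in DN4 (log2 fold change 4.32 ± 0.43, edgeR adjusted p 4.39e-05). Its partner chain Cd8b1 was at 4018, 1545, 1184, 1682 and 957 CPM against 70.8 to 138 CPM (4.26 ± 0.37, edgeR adjusted p 1.82e-05). Every tumour was above every DN4 library for both chains. The DP and double negative labels are themselves defined by CD4 and CD8, so these 3 differences are largely fixed by the choice of groups. In sorted D/AAA DP cells Cd4 ran from 309 to 1987 CPM (median 1364), so tumour 3 fell below that range.

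Rag1, which cuts DNA at receptor gene segments, was at 481, 194, 16.1, 339 and 131 CPM in the tumours and at 35.9, 31.1, 11.8, 36.2, 36.1 and 28.1 CPM in DN4. Its log2 fold change was 2.96 ± 0.60 (edgeR adjusted p 0.0149), with tumour 3 inside the DN4 range. Its partner Rag2 was at 396, 120.4, 0.816, 197 and 128 CPM in the tumours and at 25.8 to 59.2 CPM in DN4. Rag2 did not pass (1.98 ± 0.79, edgeR adjusted p 0.188). For Rag2, 4 tumours were above all DN4 libraries and tumour 3 was below all of them.

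**Figure D1:**
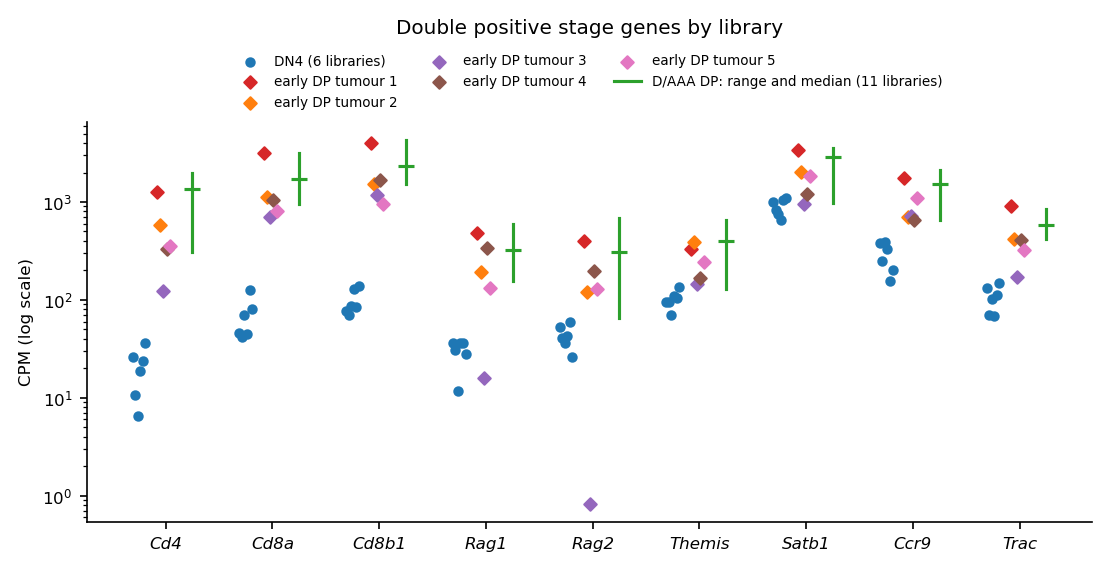
Levels in CPM (log axis) of 9 genes of the double positive stage, with 6 DN4 libraries as circles, 5 early DP tumours as coloured diamonds, and the range and median of 11 D/AAA DP libraries as green lines. Tumours lie above DN4 for Cd4, Cd8a, Cd8b1, Themis, Ccr9 and Trac, while tumour 3 falls to 0.816 CPM for Rag2.

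The other members that rose were Endou, Plxnd1, Bcl6, Ccr9, Ets2, Themis, Satb1 and Mns1. Ccr9, the receptor for the thymic chemokine Ccl25, was at 1742, 704, 724, 649 and 1111 CPM in the tumours and at 157 to 386 CPM in DN4 (log2 fold change 1.79 ± 0.31, edgeR adjusted p 0.00465). Themis, a T cell receptor signalling protein, was at 144 to 387 CPM against 69.9 to 136 CPM (1.33 ± 0.27, edgeR adjusted p 0.0123). Satb1, a chromatin organiser, was close to the threshold (1.08 ± 0.29, edgeR adjusted p 0.0482). It missed the threshold in 11 of 20 alternatives, and tumour 3 (964 CPM) lay inside the DN4 range of 661 to 1099.9 CPM. Endou, an endoribonuclease gene on chromosome 15, was at 774, 696, 939, 1581 and 375 CPM against 139 to 204 CPM (2.38 ± 0.29, edgeR adjusted p 0.000324). Plxnd1, which guides DP cells to the medulla, rose by 2.61 ± 0.50 on the log2 scale (edgeR adjusted p 0.00803).

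Promoters of 2 genes of the recombination and coreceptor steps are shown because they hold the E-box CAGCTG, a sequence bound by E proteins, the factors that drive this stage. The letters CAGCTG read the same on both strands, are marked in capitals, and were chosen after the expression values were seen. Sequences are RefSeq promoters on GRCm38.p6, written 5′ to 3′ on the gene's strand. The windows are chr2:101649503-101649752 (minus strand, Rag1) and chr6:71373207-71373456 (plus strand, Cd8a).
Rag1: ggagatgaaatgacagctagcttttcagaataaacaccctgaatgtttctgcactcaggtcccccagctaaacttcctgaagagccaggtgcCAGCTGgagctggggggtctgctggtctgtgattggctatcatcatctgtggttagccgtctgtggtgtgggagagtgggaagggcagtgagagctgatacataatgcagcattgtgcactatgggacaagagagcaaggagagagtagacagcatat
Cd8a: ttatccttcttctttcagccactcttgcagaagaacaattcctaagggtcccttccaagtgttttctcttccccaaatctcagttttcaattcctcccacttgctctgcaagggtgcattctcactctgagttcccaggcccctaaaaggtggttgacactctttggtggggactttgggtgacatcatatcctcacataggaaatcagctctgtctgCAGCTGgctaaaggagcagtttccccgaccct
Of the 12 DP stage genes that rose, 9 had a promoter in the table, and Rag1, Cd8a and Satb1 held CAGCTG there. The share was 14.1% over the 8328 tested genes with a promoter and 13.7% over all 32851 promoters of that length. Another E-box, CAGGTG, was also searched and is not marked above. Among the same 9 genes, Ccr9, Rag1 and Satb1 held it, against 16.7% of the tested genes with a promoter. A match is a description of letters and not of binding.

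A stage score placed each library between the DN4 and the DP stage. It used the 100 genes that rose most and the 100 that fell most from DN4 to DP in +/D libraries, scaled to 0 at the +/D DN4 mean and 1 at the +/D DP mean. The genes were chosen on libraries outside the comparison. Tumours 1 to 5 scored 0.87, 0.70, 0.23, 0.54 and 0.48, a mean of 0.56 ± 0.24 (SD, n = 5). The DN4 libraries scored -0.10 to 0.02 and the sorted D/AAA DP libraries 0.50 to 1.02. All tumours lay above all DN4 libraries, tumours 3 and 5 lay below every D/AAA DP library, and tumours 1, 2 and 4 lay within the DP range. The low end of that range was DP replicate 1 alone. The next lowest DP library, replicate 10, scored 0.76, which tumours 2 and 4 did not reach.

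The rising genes and the falling genes put the tumours in the same order, with different values. Tumour means were 0.62 on the rising and 0.50 on the falling genes, and D/AAA DP means were 0.91 and 0.79. On the rising genes the tumours scored 0.999, 0.79, 0.10, 0.64 and 0.56, and on the falling genes 0.73, 0.60, 0.35, 0.43 and 0.41. Tumour 1 had the rise of a +/D DP cell by this scale, and tumour 3 was just above the DN4 libraries, whose highest value was 0.00. In the gene test, 42 of the 91 rising genes tested were higher in the tumours and none lower, with a median log2 fold change of 2.61. Of 98 falling genes tested, 21 were lower and none higher, with a median of -1.08. Over all genes tested, 2.43% were higher and 1.89% lower. The falling genes include globin genes, and without the list of red cell genes the tumour mean was 0.54.

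**Figure D2:**
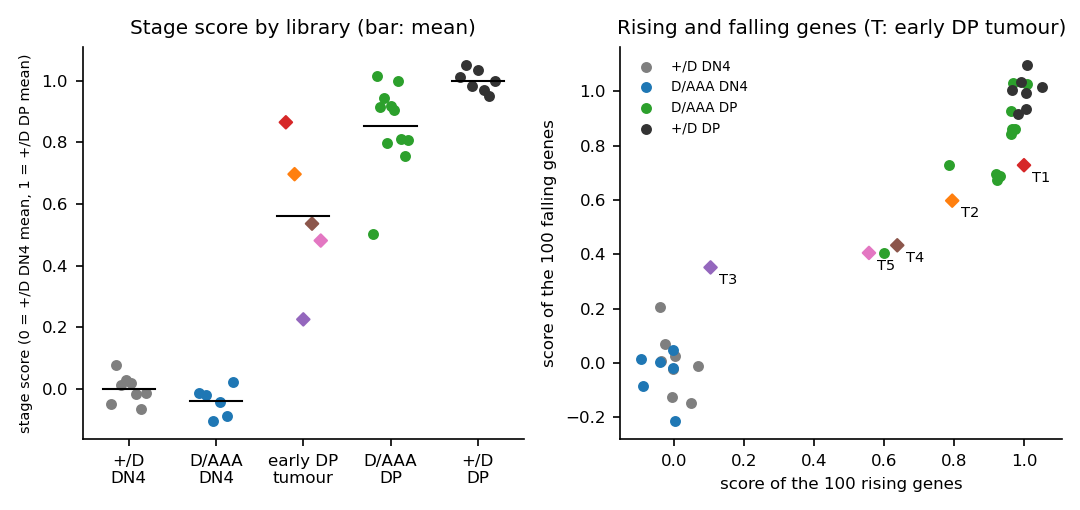
Left, stage score of each library in 5 groups, with 0 at the +/D DN4 mean and 1 at the +/D DP mean; bars are group means. Right, the score of the 100 rising genes against that of the 100 falling genes, with tumours as diamonds; tumour 1 sits at 0.999 and 0.73 and tumour 3 at 0.10 and 0.35.

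Of 24 genes of the T cell receptor complex and its proximal signalling, 3 were higher and none lower, with a median log2 fold change of 0.55. Over all genes tested 2.43% were higher. Trac, the constant part of the alpha chain, was at 905, 419, 171, 414 and 323 CPM in the tumours and at 68.8 to 147 CPM in DN4 (2.08 ± 0.35, edgeR adjusted p 0.00387). Cd247, the zeta chain that carries the signal inward, was at 423 to 1142 CPM against 198 to 349 CPM (1.23 ± 0.26, edgeR adjusted p 0.014). Ptprc, the CD45 phosphatase that primes Lck, was at 1059, 1045, 852, 1102 and 1083 CPM against 515 to 726 CPM (0.79 ± 0.18, edgeR adjusted p 0.0243). For these 3 genes the groups did not overlap, as for 4.69% of all genes tested.

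Notch and pre-T cell receptor genes did not pass in either direction among 15 tested, with a median of -0.37. In edgeR's test 1 had an unadjusted p under 0.05 and DESeq2 and limma voom called none. Ptcra, the pre-T alpha chain, spread from 11.97 to 207 CPM in the tumours (131, 44.4, 11.97, 207 and 17.9) and from 57.2 to 176 CPM in DN4 (-0.61 ± 0.60, edgeR adjusted p 0.629). Notch1 was at 40.7, 226, 79.5, 237 and 277 CPM against 149.9 to 429 CPM (-0.79 ± 0.42, edgeR adjusted p 0.313). Its targets Hes1 and Dtx1 were highest in tumour 4, at 94.3 and 149 CPM, above all 6 DN4 libraries (up to 17.9 and 54.3 CPM). In tumours 3 and 5 Dtx1 was below all DN4 libraries, at 3.27 and 1.79 CPM.

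Among 21 transcription factors of the T lineage tested, Satb1 and Tcf12 were higher and Lef1 and Nfatc1 lower. Tcf12, the E protein HEB, was at 366, 553, 319.8, 505 and 398 CPM in the tumours and at 159.7 to 303 CPM in DN4 (0.95 ± 0.22, edgeR adjusted p 0.0216). Lef1, which acts with beta-catenin, was at 129.5 to 283 CPM against 324 to 452 CPM (-0.81 ± 0.22, edgeR adjusted p 0.0476). Nfatc1, a calcium-regulated factor, was at 53.4 to 90.8 CPM against 109 to 173 CPM (-1.06 ± 0.23, edgeR adjusted p 0.0168). The groups did not overlap for these 3 genes. Lef1 missed the threshold in 13 of 20 alternatives.

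Genes of maturation and egress were lower where they passed, 5 of 23 tested and none higher (median -0.62), against 1.89% lower over all genes. Klf2, which drives egress genes, was at 6.82, 2.81, 0.272, 4.34 and 10.01 CPM in the tumours and at 15.6 to 77.4 CPM in DN4 (-2.92 ± 0.63, edgeR adjusted p 0.0167). Its target S1pr1, the receptor for the exit signal, was at 0 to 10.01 CPM against 13.1 to 73.4 CPM (-3.77 ± 0.99, edgeR adjusted p 0.0442). Ccr7, which guides cells to the medulla, was at 10.9 to 19.5 CPM against 20.7 to 108 CPM (-1.53 ± 0.41, edgeR adjusted p 0.0482). H2-K1, an MHC class I heavy chain, was at 79.2, 108, 264, 49.3 and 196 CPM against 266 to 675 CPM (-1.52 ± 0.38, edgeR adjusted p 0.0338). DN4 replicate 3 held the highest value of all 4 genes and also had the highest B cell marker levels (Cd79a at 471 CPM), whose part in the result was not tested. S1pr1 and Ccr7 missed the threshold in 12 of 20 alternatives each and H2-K1 in 10. The count of 5 became 1 to 3 without tumours 1, 2 or 4 or any 1 DN4 library, and 0 with the later-numbered libraries alone. The related class I genes H2-Q7 and H2-Q6 fell by 3.38 and 3.31 on the log2 scale, but their sequences are close to identical and reads could be split between them. With H2-K1 these were the 3 lower genes of the 16 tested in the MHC class I list, and none was higher. Fold changes in that list were positive for 9 genes and negative for 7, with a median of 0.07, and limma voom called 1.

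Among 12 tested genes of the step from G1 to S phase, Ccnd2 and Cdk6 fell. Ccnd2, a D cyclin, was at 3.29, 2.19, 1.09, 0.869 and 6.79 CPM in the tumours and at 123, 93.3, 88.2, 101.1, 110.3 and 173 CPM in DN4. The groups lay far apart (-5.38 ± 0.47, edgeR adjusted p 1.82e-05), and the D/AAA DP cells, at 0.477 to 11.8 CPM, were at the tumours' level. Its kinase partner Cdk6 was at 43.2, 57.2, 125, 48.0 and 34.7 CPM against 142 to 206 CPM (-1.49 ± 0.30, edgeR adjusted p 0.0113).

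All 35 DNA replication genes had a negative log2 fold change, with a median of -0.50, and 6 of them fell by the test. Over all genes tested 1.89% fell. Summed over the list, the level was 5395 to 12240 CPM in the tumours and 11970 to 15740 CPM in DN4. Pold1, the catalytic subunit of DNA polymerase delta, was at 68.9, 172, 238, 126 and 281 CPM in the tumours and at 497, 488, 333, 438, 494 and 333 CPM in DN4 (-1.28 ± 0.30, edgeR adjusted p 0.0262). Cdt1, which loads the MCM helicase, was at 65.8, 108, 155, 135 and 158 CPM against 204 to 300.4 CPM (-1.08 ± 0.23, edgeR adjusted p 0.0182). E2f1, the factor that activates S phase genes, was at 42.5, 76.6, 81.6, 79.9 and 133 CPM against 154 to 227 CPM (-1.12 ± 0.25, edgeR adjusted p 0.0216). Gins2 and Chaf1a fell by 0.98 and 0.97 on the log2 scale, and the MCM subunit Mcm2 by 0.96 (edgeR adjusted p 0.0497). Tumour 1 had the lowest level of Pold1, Cdt1, E2f1, Chaf1a and Mcm2. Rrm2, which makes deoxynucleotides, was at 562 to 989 CPM against 602 to 1012 CPM (-0.06 ± 0.22, edgeR adjusted p 0.924).

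The count of 6 depended on single libraries. It was 0 without tumour 2, 1 without tumour 4 or DN4 replicate 2, 2 without DN4 replicate 1 or 4, 3 without DN4 replicate 3 and 9 without tumour 3. DESeq2 called 10 and limma voom 14. With the later-numbered libraries alone it was 0, and the median was -0.62. Sorted D/AAA DP cells had lower levels than DN4 of the same genes, with medians of 116 CPM for Pold1, 83.2 CPM for Cdt1 and 42.2 CPM for E2f1. Tumours 2 to 5 were above those DP medians for all 3 genes and tumour 1 was below them for Pold1 and Cdt1.

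The promoters of Cdt1 and Chaf1a are shown because they hold the E2F motif TTCCCGC, searched on both strands (GCGGGAA on the other) and marked in capitals, and likewise chosen after the values were seen. The windows are chr8:122567795-122568044 and chr17:56040196-56040445, both on the plus strand of GRCm38.p6 from RefSeq.
Cdt1: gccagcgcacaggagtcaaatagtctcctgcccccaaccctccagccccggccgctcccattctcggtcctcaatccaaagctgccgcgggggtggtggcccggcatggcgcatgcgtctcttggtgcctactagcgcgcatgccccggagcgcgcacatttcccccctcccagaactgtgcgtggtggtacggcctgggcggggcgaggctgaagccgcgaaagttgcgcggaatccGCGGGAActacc
Chaf1a: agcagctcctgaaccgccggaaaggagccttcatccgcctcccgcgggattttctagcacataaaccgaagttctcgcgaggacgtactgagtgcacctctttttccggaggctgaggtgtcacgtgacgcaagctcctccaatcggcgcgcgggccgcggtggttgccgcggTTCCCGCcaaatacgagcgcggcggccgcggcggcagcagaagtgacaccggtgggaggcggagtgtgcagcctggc
Of 35 DNA replication genes, 29 had a promoter in the table and 12 (41.4%) held the motif, against 9.07% of the 8328 tested genes and 3.99% of all 32851 promoters. Of the 6 that fell, 5 had a promoter and 2 held it.

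None of 35 mitosis genes passed edgeR's test, 3 had an unadjusted p under 0.05, and their median log2 fold change was 0.15, with 23 positive and 12 negative. DESeq2 called none and limma voom 1. Cdc20 itself was at 186, 341, 287, 219 and 352 CPM in the tumours and at 287, 339, 295, 348, 293 and 168 CPM in DN4 (-0.06 ± 0.23, edgeR adjusted p 0.933), and a gene count cannot show the AAA form. Of 20 genes of the anaphase-promoting complex, cohesin and securin, Wapl, which releases cohesin from DNA, was higher (219.5 to 358 against 114 to 186 CPM, 0.88 ± 0.21, edgeR adjusted p 0.0275). Wapl lies on chromosome 14.

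**Figure D3:**
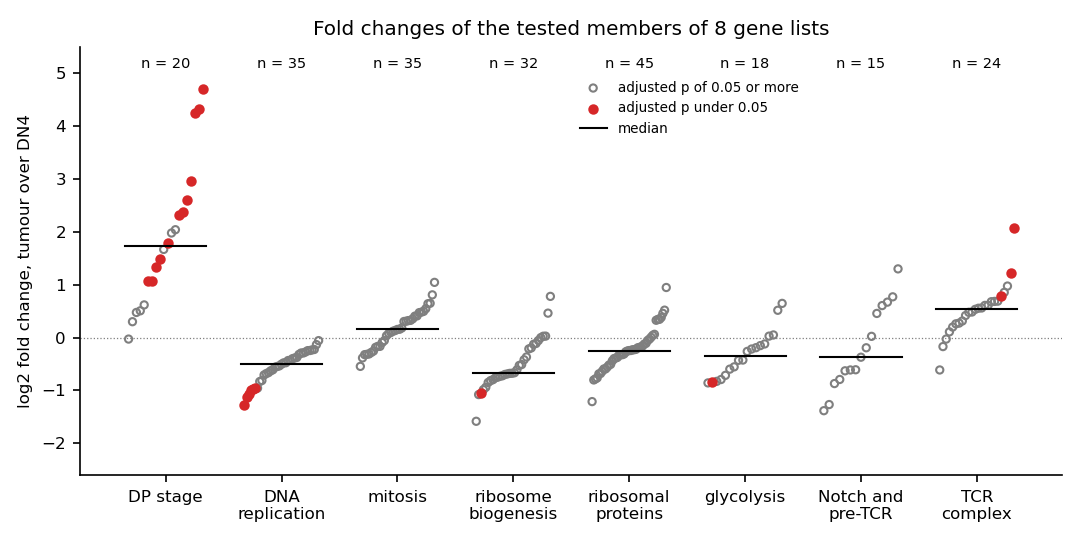
Log2 fold change, tumour over DN4, of each tested member of 8 gene lists, with red points for an edgeR adjusted p under 0.05 and bars for the list's median. Of 20 DP stage genes, 19 lie above 0 and 1 below (median 1.73). All 35 DNA replication genes lie below 0 (median -0.50) and mitosis genes lie around 0 (median 0.15).

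Myc, the growth regulator on chromosome 15, was at 37.4, 220.5, 382, 327 and 296 CPM in the tumours and at 479, 478, 404, 344, 313 and 324 CPM in DN4. Tumours 3 and 4 lay inside the DN4 range and tumour 1 lay far below it. The difference did not pass (-0.63 ± 0.39, edgeR adjusted p 0.388). In D/AAA DP cells Myc had a median of 47.8 CPM (12.6 to 295), and tumours 3, 4 and 5 were above all of these libraries. Of 10 tested genes of the Myc network, Mxd4, a repressor that competes with Myc for Max, was higher at 273, 133, 60.4, 212 and 106 CPM against 23.3 to 72.3 CPM (1.86 ± 0.37, edgeR adjusted p 0.0103). D/AAA DP cells had a median of 253 CPM of Mxd4.

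Of 32 ribosome biogenesis genes, Ppan alone fell, a nucleolar factor of the large subunit, at 61.6, 129, 183, 129 and 110.1 CPM against 206 to 367 CPM (-1.05 ± 0.26, edgeR adjusted p 0.0321). The list's median was -0.67, with 27 of 32 negative. The count was 0 without tumours 2, 4 or 5 or DN4 replicates 1, 2 or 3, 2 without DN4 replicate 6, 3 without tumour 1 and 11 without tumour 3. DESeq2 called 6 and limma voom 11. Summed levels were 3282 to 11990 CPM in the tumours and 8639 to 11420 CPM in DN4. None of 45 ribosomal protein genes passed edgeR's test (median -0.25), 6 had an unadjusted p under 0.05, DESeq2 called 1 lower and limma voom 5. With +/D DN4 cells as the reference, 13 ribosomal protein genes (median -0.52) and 11 ribosome biogenesis genes were lower. Over all genes in that setting 1221 of 12467 were lower, a larger share than in the main test. That reference also differs from the tumours in genotype. The ribosomal protein median was 0.00 within the later-numbered libraries.

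Of 12 tested genes of the BCL2 family of survival and death proteins, Bcl2 and Pmaip1 were lower and none higher. Bcl2, which protects mature and early T cells, was at 13.2, 4.38, 0.544, 6.73 and 12.5 CPM in the tumours and at 83.8, 29.6, 118, 74.1, 77.6 and 78.7 CPM in DN4 (-3.36 ± 0.55, edgeR adjusted p 0.00311). D/AAA DP cells ran from 5.96 to 56.2 CPM with a median of 31.7. Bcl2l1, which encodes the DP stage survival protein Bcl-xL, was at 298, 188, 16.6, 183 and 179.8 CPM against 34.2 to 80.8 CPM (1.67 ± 0.47, edgeR adjusted p 0.0549). It just missed the threshold, and tumour 3 was below all DN4 libraries. Pmaip1, the death activator Noxa, had 0 counts in all 5 tumours and 0 to 7.96 CPM in DN4. It entered the test only through the DN4 libraries, was tested in 13 of 20 alternatives and missed the threshold in 4 of these. Taking 3 counts in each tumour library as the limit of detection, the tumour mean was at least 4.87-fold lower.

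Trp53 was at 187, 177, 462, 555 and 255 CPM in the tumours and at 283 to 415 CPM in DN4 (-0.15 ± 0.28, edgeR adjusted p 0.817). Of 18 tested targets of p53, Fas and Trp53inp1 were higher and Pmaip1 lower, the last with 0 counts in all tumours and the limits given above. Fas, a death receptor, was at 163, 82.9, 26.1, 69.7 and 47.6 CPM against 8.22 to 26.3 CPM (2.07 ± 0.41, edgeR adjusted p 0.0106), with tumour 3 inside the DN4 range. Trp53inp1, an autophagy and stress gene, was at 271, 514, 57.1, 368 and 460.2 CPM against 67.4 to 128 CPM (1.91 ± 0.40, edgeR adjusted p 0.0142), with tumour 3 below it. Cdkn1a, the p21 inhibitor of cyclin kinases and a direct p53 target, was at 1.41 to 13.1 CPM against 4.07 to 18.4 CPM (edgeR adjusted p 0.595).

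Of 18 tested genes that are mutated or misexpressed in T cell leukaemia, none passed edgeR's test (median -0.01), 3 had an unadjusted p under 0.05, DESeq2 called 2 and limma voom 3. Tal1, Tlx1, Tlx3 and Hoxa9 had 0 counts in all 11 libraries.

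The largest rises among the genes past the threshold were in genes that DN4 cells barely held. They included Olig3, Cym, Fkbp10, Slit3, Xrra1, Ly6c1, Igsf23, Slc6a13, Fbln1, Adcy1, Cpeb1, P3h4 and Slc7a11. For 13 of the 15 largest rises the groups did not overlap, which the way these genes were chosen largely fixes (4.69% of all tested genes did not overlap). Olig3, a neural transcription factor, was at 26.6, 21.9, 16.1, 28.7 and 27.2 CPM in the tumours and had 1 count over the 6 DN4 libraries. The ratio of summed counts per summed library total was 930.1, which rests on that 1 count and has a counting interval of 166 to 36817. Its adjusted p was under the threshold in all 20 alternatives, the highest being 0.0341. Olig3 entered the test only through the tumours and was chosen among genes that passed. The alternatives draw on the same tumours, so they are no independent support.

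Ly6c1, a surface protein of memory T cells and myeloid cells on chromosome 15, was at 41.1, 278, 2682, 418 and 301 CPM against 2.26 to 14.8 CPM (6.17 ± 0.98, edgeR adjusted p 0.00692). It is close in sequence to Ly6c2, so its reads may be shared. Fbln1, a matrix protein gene also on chromosome 15, was at 12.5, 128, 239, 235 and 324 CPM against 0.124 to 12.03 CPM (5.42 ± 1.14, edgeR adjusted p 0.0256). Fkbp10 (chromosome 11, 100415697 to 100424824) and P3h4 (100408456 to 100414836) are neighbours that both encode collagen-processing proteins of the endoplasmic reticulum. Fkbp10 was at 3.996, 82.3, 10.3, 34.97 and 109.8 CPM against 0 to 0.746 CPM. P3h4 was at 66.0, 81.6, 7.35, 88.4 and 108 CPM against 0 to 6.23 CPM. Slc7a11, the cystine importer, was at 76.4, 61.6, 22.04, 43.9 and 59.0 CPM against 0 to 4.03 CPM (4.98 ± 0.74, edgeR adjusted p 0.00152).

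Several of these rises were also present in sorted DP cells. D/AAA DP medians were 10.7 CPM for Olig3, 66.8 CPM for Slc7a11, 92.0 CPM for Xrra1 and 43.3 CPM for P3h4. Lower DP medians were seen for Cym (3.87 CPM), Fkbp10 (4.67 CPM) and Fbln1 (6.67 CPM). No gene passed edgeR's test between the tumours and the D/AAA DP cells (0 of 12245, 0%, with 2719 at an unadjusted p under 0.05), while 31.6% of 12464 genes passed between D/AAA DP and DN4 cells. These comparisons share libraries with the main one. Cym missed the threshold in 11 of 20 alternatives and Xrra1 in 9 of 19, and both rested on some tumours: Cym was at 0 CPM in tumour 1 and 1190.3 CPM in tumour 3, and Xrra1 at 269.8 and 0.272 CPM.

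The largest falls included Hba-a1, Alas2, Hbb-bs, Hba-a2, Hbb-bt, Nrgn, Ybx3, Rnf135, Chn2, Ube2l6, Ccnd2, Ifitm2, Ahr and Cd7. In 14 of the 15 largest falls the groups did not overlap, which is likewise largely fixed by the choice. Ybx3, a cold-shock protein that binds RNA, was at 3.06, 7.82, 0.544, 0 and 0 CPM in the tumours and at 226, 248, 267, 256, 147 and 223 CPM in DN4 (-6.65 ± 0.79, edgeR adjusted p 0.000613). D/AAA DP cells were at 6.65 to 31.3 CPM, above 4 of the 5 tumours. Nrgn, a calmodulin-binding protein, was at 7.48 to 55.1 CPM in DN4 and had 1 count over the 5 tumours. It entered the test only through the DN4 libraries. Cd7, a T and NK cell surface protein, was at 0 to 4.65 CPM against 4.98 to 59.2 CPM (-3.89 ± 0.76, edgeR adjusted p 0.00985).

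Red cell genes led the falls. All 5 tested members of the red cell list fell in edgeR's test, limma voom called 0 of them and the later-numbered libraries alone 2. Their median log2 fold change was -9.81, and -5.45 with +/D DN4 cells as the reference. The list summed to 0.544 to 89.3 CPM in the tumours and 1849 to 37290 CPM in DN4. Hbb-bs, a beta globin gene, was at 32.2, 0.626, 0, 0.434 and 1.07 CPM in the tumours and at 681, 4476, 14457, 6954, 9826 and 2195 CPM in DN4 (-9.81 ± 1.66, edgeR adjusted p 0.0111). Alas2, the heme synthesis enzyme of red cells, was at 0 to 0.626 CPM against 14.9 to 575 CPM. The pairs Hba-a1 with Hba-a2 and Hbb-bs with Hbb-bt are close to identical, so counts of each are uncertain. Slc4a1, a red cell anion exchanger of the list, had 0 counts in all tumours. The part of red cell RNA in the other falls was not tested.

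Some markers of other lymphocytes also differed between the groups. Of 8 gamma delta T cell genes tested, 7 had lower levels in the tumours and Blk, a Src kinase, passed (2.35, 9.38, 16.6, 29.97 and 11.1 against 23.2 to 157 CPM, -2.35 ± 0.54, edgeR adjusted p 0.0232). Trdc, the delta constant gene, was at 72.9, 29.4, 0.272, 3.26 and 5.72 CPM against 182 to 279.7 CPM, with no overlap but an edgeR adjusted p of 0.0629. The list summed to 121.5 to 599 CPM in the tumours and 821 to 1332 CPM in DN4. Of 5 tested NK and NKT genes, 3 had positive and 2 negative fold changes, with a median of 0.70 on the log2 scale. Nkg7, a cytotoxic granule protein, was 1 of 2 that fell (7.29, 1.56, 1.36, 5.65 and 5.36 against 42.3 to 86.0 CPM, -3.87 ± 0.44, edgeR adjusted p 0.000191). Zbtb16, the factor of innate-like T cells, also fell, with 1 tumour count and 0 to 22.3 CPM in DN4. Ncr1, a defining NK gene, was at 0 in all 11 libraries. Gzma, of the same list, was at 47.2, 507, 2045, 572 and 446 CPM in the tumours and 207 to 401 CPM in DN4.

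B cell genes were high in single DN4 libraries, replicates 3 and 5. Cd79a, a B cell receptor subunit, was at 471 and 87.5 CPM in these 2 and at 2.71 to 10.1 CPM in the other 4, against 0 to 1.25 CPM in the tumours. None of 5 B cell genes passed edgeR's test, 4 had an unadjusted p under 0.05, DESeq2 called 3 and limma voom 1. All 5 had negative fold changes. The B cell list summed to 859 to 5419 CPM in DN4 and 315 to 1448 CPM in the tumours, where Ighm made up most of it. Myeloid genes summed to 22.9 to 54.3 CPM in the tumours and 1.99 to 16.2 CPM in DN4. Dendritic cell genes summed to 704 to 1806 CPM in the tumours and 280 to 2508 CPM in DN4. Of 4 tested, Ccr9, also a DP marker, was higher and 3 had negative fold changes. In edgeR's test 3 had an unadjusted p under 0.05, DESeq2 called 3 and limma voom 1. Itgax and Clec9a of this list were at 0 in all 11 libraries. Stromal genes summed to 134 to 199.5 CPM against 102 to 132 CPM, with Pecam1 higher (0.87 ± 0.23, edgeR adjusted p 0.0422), which missed the threshold in 14 of 20 alternatives. Early progenitor genes summed to 4.69 to 54.5 CPM in the tumours and 22.9 to 165 CPM in DN4. The part of these cells in the results was not tested.

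Few genes of the metabolic lists passed. Of 18 glycolysis genes Hk1, a hexokinase, was lower (58.2 to 91.9 against 112 to 168 CPM, -0.84 ± 0.21, edgeR adjusted p 0.0317), and the median was -0.34. Fold changes were negative for 14 of the 18. DESeq2 called 3 lower and limma voom 4, and without tumour 3 edgeR called 4. Of 21 sterol genes Lss and Idi1 were lower, by 1.41 and 1.52 on the log2 scale in size. Of 26 respiratory chain genes Cox6c and Ndufb9 were higher, and both lie on chromosome 15. Both passed without tumour 1 or 5, and 0 or 1 passed in each of the other fits that left out 1 library. Cox6c was at 361, 576, 1275, 817 and 399.7 CPM against 262 to 381 CPM (1.08 ± 0.29, edgeR adjusted p 0.0445), with 1 tumour inside the DN4 range. Cox6c, like the genes Irf7 and Nfkbia of other lists, missed the threshold in 11 of 20 alternatives. Of 21 chaperone genes none passed edgeR's test, 1 had an unadjusted p under 0.05 and neither other tool called any. Of 11 nutrient transporters none passed edgeR's test, 3 had an unadjusted p under 0.05, and DESeq2 called 0 and limma voom 1. Of 21 interferon genes Irf7 was lower (-1.68 ± 0.45, edgeR adjusted p 0.0433). Of 13 genes that respond to cell handling, Nfkbia, the NF-kappa-B inhibitor, was higher, at 743, 192, 174, 459 and 167 CPM against 86.9 to 189.9 CPM (1.46 ± 0.38, edgeR adjusted p 0.0422), with tumours 3 and 5 inside the DN4 range.

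Chromosome scores averaged log2 CPM over a chromosome's genes, relative to the DN4 mean. Chromosome 15 scored -0.05, 0.55, 0.88, 0.76 and 0.67 in tumours 1 to 5 and -0.11 to 0.19 in DN4. Tumours 2 to 5 were above every DN4 library, and tumour 1 was within their range. A copy number of 3 in place of 2 with proportional RNA would give 0.585. The difference of means was 0.56, with a 2-sided exact permutation p of 0.013 and 0.052 after adjustment over 20 chromosomes. Chromosome 14 scored -0.01, 0.34, 0.48, 0.44 and 0.40 against -0.06 to 0.05 in DN4 (difference 0.33, exact permutation p 0.0108, adjusted 0.052). With all 5 tumours and genes of at least 1 CPM, chromosomes 14, 15 and X passed the adjusted threshold. With the minimum of 10 CPM used here, no chromosome passed it. At that minimum, chromosomes 1, 10, 11, 14, 15, 17, 19 and X had an unadjusted exact permutation p under 0.05. Without tumour 1 the chromosome 15 difference was 0.72 with an adjusted exact permutation p of 0.0238, and 7 chromosomes passed.

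In the gene test, 54 of 438 chromosome 15 genes (12.3%) were higher in the tumours and 1 lower, against 2.43% higher over all genes. On chromosome 14 the count was 26 of 392 (6.63%) higher and 2 lower. Without tumour 1 the chromosome 15 count was 89, without tumours 2 or 4 it was 33 or 27, without DN4 replicates 1 or 2 it was 31 or 28, and with the later-numbered libraries alone it was 0. To set part of the DN4 to DP change aside, receptor segments and genes that passed between D/AAA DP and DN4 cells were left out. That choice used the same DN4 libraries, and DP replicates 1 and 5 described below, so it is not independent. The remaining 269 genes of chromosome 15 scored -0.19, 0.50, 0.92, 0.69 and 0.64 in the tumours and -0.15 to 0.17 in DN4. Their difference of means was 0.51 (exact permutation p 0.026, adjusted 0.108), and it did not pass. Other chromosomes varied by tumour. Chromosome 1 was at 0.33, 0.20 and 0.31 in tumours 2, 4 and 5, chromosome 2 at 0.32, 0.20 and 0.45 and chromosome 4 at 0.33, 0.24 and 0.36, all above the DN4 range. Tumour 3 was at 0.06, -0.07 and -0.08 on these 3, and lowest of the tumours on chromosome 6 at -0.46. D/AAA DP replicates 1 and 5, labelled non-tumoral, scored 0.66 and 0.46 on chromosome 15, and their top Trbv genes took 58.4 and 29.0% of Trbv counts.

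**Figure D4:**
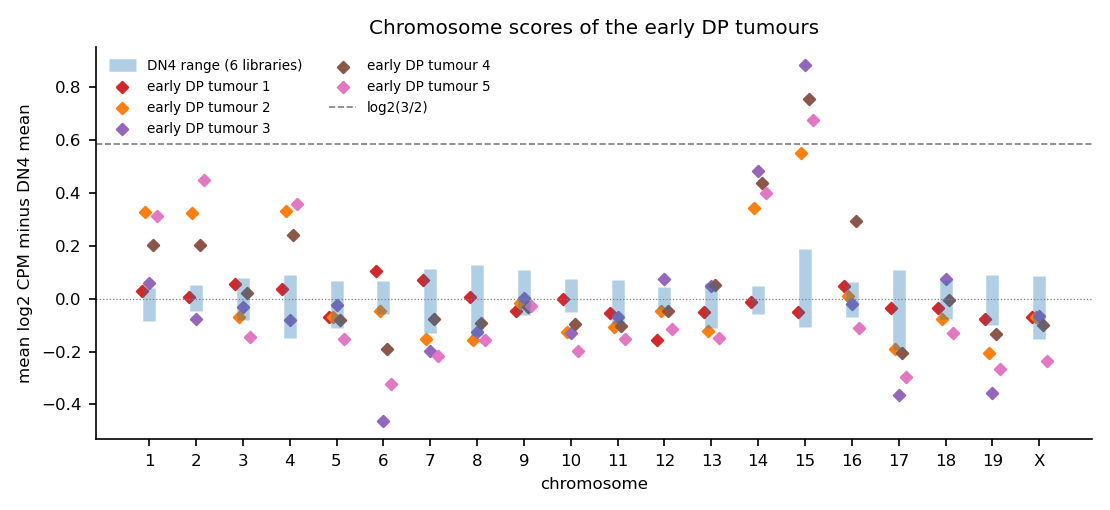
Chromosome scores (mean log2 CPM of a chromosome's genes minus the DN4 mean) of the 5 early DP tumours as diamonds, with the range of 6 DN4 libraries as bars and the value for 3 copies over 2 (0.585) as a dashed line. Tumours 2 to 5 score 0.55 to 0.88 on chromosome 15 and 0.34 to 0.48 on chromosome 14, and tumour 1 stays near 0 on both.

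Receptor gene use was narrow in 4 of the 5 tumours. The most used Trbv gene took 10.96% of Trbv counts in tumour 1 (Trbv13-2), 33.8% in tumour 2 (Trbv20), 98.9% in tumour 3 (Trbv19), 57.8% in tumour 4 (Trbv16) and 65.1% in tumour 5 (Trbv19). Their 95% exact binomial intervals were 10.4 to 11.5%, 32.2 to 35.4%, 98.6 to 99.2%, 56.5 to 59.2% and 63.6 to 66.6%, which cover counting error only. In DN4 the top share was 10.3 to 13.5%, with Trbv13-2 or Trbv13-1 on top. The means were 53.3% ± 33.2 (SD, n = 5) and 12.3% ± 1.12 (SD, n = 6), a difference of 41.0 points (2-sided exact permutation p 0.013, adjusted over 2 shares 0.026). Leaving out a library other than tumour 1 moved the adjusted p to between 0.0571 and 0.0952, and each reduced design allows fewer splits.

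A second gene was also common in some tumours. Tumour 4 had 26.6% of Trbv13-2, tumour 5 had 23.03% of Trbv1 and tumour 2 had 14.7% of Trbv13-2. In tumour 3 the next gene was at 0.385%. That tumour also had 3.27 CPM of Trbc1 and 4965 CPM of Trbc2, the 2 beta constant genes, while the other tumours had at least 1088 CPM of both. Counts were spread over 24 Trbv genes in tumour 1 and 8 in tumour 3.

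The top Trav share was 3.14, 24.4, 18.2, 3.71 and 11.1% in the tumours and 7.39 to 19.1% in DN4 (difference 1.08 points, exact permutation p 0.82). In 5 of 6 DN4 libraries the top Trav gene was a Trav15 gene whose name also carries DV6, a segment that delta chains can use. In the tumours the top genes were Trav12n-3, Trav21-dv12, Trav13-3, Trav12-3 and Trav6-7-dv9, of which those of tumours 2 and 5 also carry a DV name. Near-identical copies of Trav genes make these shares uncertain. D/AAA DP cells had top Trav shares of 2.63 to 4.48% except replicate 1 at 38.9%.

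**Figure D5:**
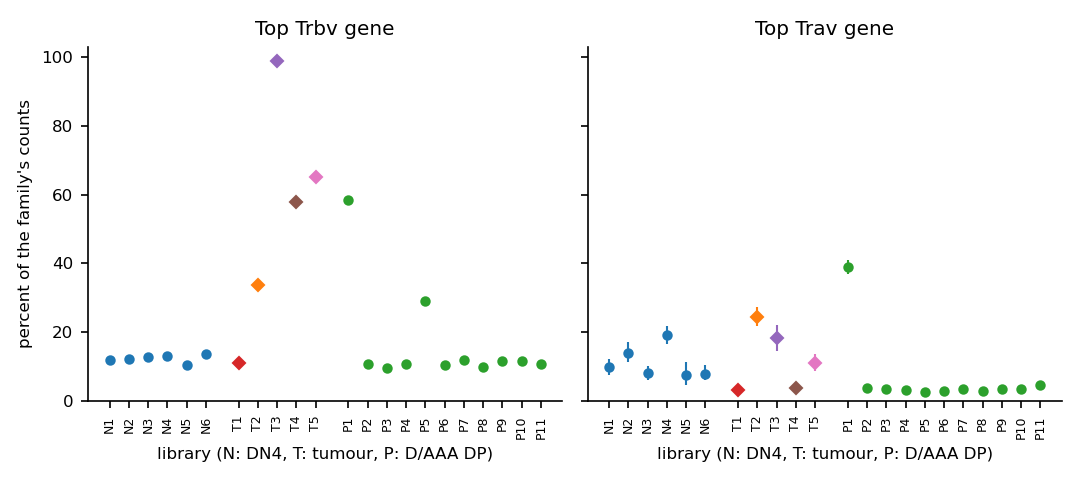
Share of the most counted Trbv gene (left) and Trav gene (right) among all counts of that family in each library, in percent, with 95% exact binomial intervals. Tumours 2 to 5 lie at 33.8 to 98.9% for Trbv, while DN4 libraries lie at 10.3 to 13.5% and tumour 1 at 10.96%.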

How the data were processed

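RNA from mouse thymus cells and tumours was sequenced. The authors deposited RSEM expected counts per gene, made with STAR 2.5.3a and RSEM 1.3.0 on GRCm38 (mm10), per the submitters' processing notes; the values were whole numbers. The strand setting and the annotation were not given in the sources used here, so overlapping and antisense genes cannot be told apart. Of 50686 genes, 50462 took a symbol and position from GENCODE, and sequences came from RefSeq. Groups came from the labels. The members and gene lists were chosen with earlier results of these data known.

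The main test was edgeR 4.0.16 (R 4.3.3), quasi-likelihood with robust dispersion, TMM scaling and filterByExpr, 5 tumours against 6 DN4 libraries, with Benjamini-Hochberg adjustment over all genes and a threshold of 0.05. The standard error was the log2 fold change over the square root of F. CPM used TMM-scaled totals. On simulated counts for this comparison (11292 genes), the test recovered 70% of 100 genes changed 4-fold and 15% of 100 changed 2-fold, and called 1 unchanged gene. Depth is given per group in the report; no pair of libraries was identical.

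Named genes were the 15 largest rises and the 15 largest falls among genes past the threshold, with a mean of at least 20 CPM in 1 group and at least 4 tumours beyond the DN4 median, without receptor segments, mitochondrial and sex-linked marker genes and identifier-only names, plus up to 3 called members per direction of each list and Cdc20, Trp53, Myc, Cd4, Cd8a, Cd8b1, Rag1, Rag2, Ptcra and Il2ra. Other genes given with values, such as Notch1, Hes1, Dtx1, Rrm2, Bcl2l1, Cdkn1a, Trdc, Gzma and Cd79a, were chosen after their values were seen. Some genes that meet the rule are not reported here. Chromosome scores used genes of at least 10 CPM and stage scores 100 genes per direction. The CPM minimum and the removal of receptor segments in the stage score were not in the original design. Promoter windows, limited to 220 bases before and 30 after the start, and their motifs were chosen after the values were seen. Receptor shares and chromosome scores were compared by exact permutation tests over 462 splits, whose smallest 2-sided p is 0.00216. DESeq2 1.42.0, limma 3.58.1 voom, other scalings and filters, other reference libraries and leaving out each library were the alternatives. Leaving out tumours 1 and 3 together, and the stage score without red cell genes, were added after seeing the data.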

Additional observations from a re-analysis of the deposited data

Results flagged for a closer look

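Within a group, 1 library stood apart from the others by Dixon's test in 24 of 193 groups of values (12.4%), where chance gives about 1 in 20. In the tumours, tumour 1 was apart for Fbln1 (12.46 CPM), Hbb-bs (32.2 CPM), Hba-a2 (44.42 CPM), Hbb-bt (7.756 CPM), Ahr (3.526 CPM), Zbtb16 (0.235 CPM), Myc (37.37 CPM) and the chromosome 14 score (-0.01057). Tumour 3 was apart for P3h4 (7.348 CPM), Ptprc (852.1 CPM) and Rag2 (0.8164 CPM). Tumour 2 was apart for Rnf135 (1.251 CPM), and tumour 5 for Nrgn (0.3575 CPM) and the chromosome X score (-0.2366).

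Among the DN4 libraries, replicate 1 stood apart for Adcy1 (3.189 CPM) and Fas (8.224 CPM), and replicate 2 for Bcl2 (29.61 CPM). Replicate 3 stood apart for Ahr (0.4033 CPM) and Rag1 (11.83 CPM). Replicate 4 stood apart for Slit3 (0.7586 CPM), the one library above 0. Replicate 5 was apart for Olig3 (0.3116 CPM), likewise the one library above 0, and for Ybx3 (147.1 CPM). Replicate 6 was apart for Ly6c1 (2.262 CPM) and Cdc20 (168.1 CPM).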

How the results depend on the processing

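Against the 487 genes of the main test, +/D DN4 cells as the reference gave 2497, a joint fit of all sorted D/AAA libraries 1134, DESeq2 1079, limma voom with quality weights 1207 and the later-numbered libraries alone 22. Leaving out 1 library gave 230 to 816. The cause was not tested, except that the later-numbered libraries hold 2 DN4 libraries. No filter on low counts gave 706. Of 487 genes, DESeq2 called 485 and voom 441. None of the 71 named genes that passed reversed in an alternative where it was tested, though Ahr missed the threshold in 11 of 20. Differences that did not pass turned sign in some alternatives. Cdc20, at -0.06 on the log2 scale, was 0.05 with +/D DN4 cells, 0.26 in the later-numbered libraries, 0.088 without tumours 1 and 3 and -0.17 to 0.06 with 1 library left out. Il2ra was 0.12 with +/D DN4 cells and -0.86 to 0.13 with 1 library left out, and Trp53 was -0.42 to 0.0031. The Trav difference was -1.17 points with at least 500 counts and -1.995 to 3.32 with 1 library left out. The chromosome 15 difference of 0.56 was 0.61 (adjusted exact permutation p 0.0433) with genes of at least 1 CPM, 0.66 (0.0298) without tumours 1 and 3, and 0.48 to 0.72 with 1 library left out. The number of chromosomes past the adjusted threshold went from 0 to 3, to 8 and to between 0 and 7 in those settings. Without receptor segments and genes that passed between D/AAA DP and DN4 cells, the chromosome 15 difference was 0.51 (adjusted exact permutation p 0.108). The Trbv difference of 41.0 points ran from 29.6 to 51.6, with adjusted exact permutation p-values of 0.00952 without tumour 1 and 0.0571 to 0.0952 without any other library, where fewer splits exist. The stage score mean of the tumours stayed between 0.51 and 0.64. No paired analysis was possible because the labels give the libraries of these groups no replicate numbers. At this depth the simulated test missed most 2-fold changes, so genes that did not pass may still differ.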

Other observations

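Genes at 50 CPM or more in 1 of the 11 libraries and under 1 CPM in the other 10 were searched for. The search found Igfbp7 in tumour 3 (71.6 CPM), Vgll1 in tumour 4 (65.2 CPM) and the chemokine receptor gene Ccr6 in DN4 replicate 3 (62.8 CPM). Cd5 and Cd6, which dampen T cell receptor signals, were at 8.71 and 10.6 CPM in tumour 3 and at 55.5 CPM or more in every other library. These were chosen after their values were seen.

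The mitochondrial gene mt-Nd4l, also chosen after its values were seen, had 0 counts in all 5 tumours and 19.5 to 92.3 CPM in the DN4 libraries, while D/AAA DP libraries ran from 0 to 205 CPM. The gamma chain constant gene Tcrg-C2 was at 17.6, 4.38, 198, 148 and 44.0 CPM in the tumours and at 185 to 333 CPM in DN4. Tumours 3 and 4 had more of it than any D/AAA DP library (0.435 to 131 CPM).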
